A study of Homo sapiens with 4 samples.

Results

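EREG, the gene of the growth factor epiregulin, was 1.66-fold higher in HuH7 cells that carried shRNA against MKL1 and MKL2, whereas ERBB2 and SHC1 were lower, at 0.782 and 0.758 of control, and the receptor gene EGFR itself differed by a log2 value of 0.03. None of these differences passed the test over all genes. The genes described here are the receptors EGFR, ERBB2 and ERBB3, the ligands EGF, TGFA, HBEGF, BTC, EREG and AREG, and the adaptor SHC1. They were taken as a list of names, and 9 of the 10 were matched to a probe by the platform annotation, out of 18417 genes tested. AREG was not matched to a probe and has no value here. Each of the 9 had 1 probe that lists that gene alone.

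HuH7 is a human hepatocellular carcinoma line. The control group is HuH7 with a negative control shRNA, and the knockdown group is HuH7 with shRNA directed against MKL1 and MKL2, with 2 biological replicates of each and 1 array per sample. All cells were below passage 10, grew in DMEM with 10% serum, were infected with virus made in HEK293T cells from the pLKO.1 vector, and were selected with puromycin for 7 days. The control therefore shares the vector, the infection and the drug, and the labels do not say whether replicates came from separate infections, so the p-values measure the spread between these samples. Serum contains growth factors and was present in every sample, and the arrays read transcripts, not receptor phosphorylation or shed ligand.

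The EGFR family, also called the ErbB family, consists of receptor tyrosine kinases that pair up when a ligand binds. ERBB2 has no known ligand of its own and acts as the preferred partner, and ERBB3 has a weak kinase and signals mainly through PI3 kinase when paired. The ligands are made as membrane proteins and are cut free by ADAM proteases, after which they act on the same or on nearby cells. Activated receptors recruit adaptors such as SHC1 and GRB2, which switch on RAS and the ERK kinases. In liver, EGFR signalling is known for its part in hepatocyte proliferation during regeneration. MKL1 and MKL2, now named MRTFA and MRTFB, are actin-regulated coactivators of serum response factor (SRF).

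The probe that lists MRTFA read 7.77 and 7.80 in the control arrays and 6.81 and 6.91 in the knockdown arrays, on the log2 scale of the deposited values. It fell by 0.93 (SE 0.096, limma adjusted p = 0.0404). This probe also lists a second gene, RBM15. MRTFB read 7.20 and 7.22 against 6.84 and 7.11, a difference that did not pass (limma adjusted p = 0.448). The arrays had medians between 5.68 and 5.73 and lower quartiles between 3.99 and 4.02. No background level was available, so genes below that quartile are given with no factor, and the number of arrays limits the precision. The log2 difference between the arrays of a group had an SD over genes of 0.154 in control and 0.265 in knockdown cells. The 7 measured hepatocyte markers lay between 9.91 and 12.43 in all arrays. In knockdown arrays 3 of them lay lower and 2 higher with no overlap, beside 23% and 22.5% of all genes. Their differences ranged from -0.31 for AFP (limma unadjusted p = 0.0188) to 0.16 for ALB. The 3 measured leukocyte markers lay between 2.78 and 5.33. All 3 were higher in knockdown arrays with no overlap, beside 22.5% of all genes: PTPRC by 0.30 (limma unadjusted p = 0.0419), CD3E by 0.15 and CD14 by 0.097. PTPRC, which defines leukocytes, stayed below the lower quartile in all arrays. The 3 endothelial markers lay between 4.65 and 6.92, with differences from 0.065 to 0.18. The 4 bile duct markers lay between 5.56 and 9.91, and the groups overlapped for all 4. Their differences ranged from -0.16 for EPCAM to 0.10 for KRT7. EPCAM read 8.565 and 8.254 in control and 8.744 and 7.76 in knockdown arrays. No marker passed over all genes. The 5 fibroblast markers ranged from 2.66 to 8.60, with LUM at 8.05 and 8.01 in control and 7.13 and 8.60 in knockdown arrays.

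The question was how the transcripts of the receptors, ligands and adaptor compare between knockdown and control cells. Differences are knockdown minus control on the log2 scale, tested with limma over all genes with Benjamini-Hochberg adjustment. None of the 9 genes passed an adjusted p of 0.05, a threshold that 0.174% of all genes passed. At an unadjusted p under 0.05 there were 3 of the 9 (EREG, SHC1 and ERBB2), against 14.3% of all genes (8.04% lower and 6.25% higher). Both knockdown arrays lay above both controls for 4 of the 9 (EREG, ERBB3, TGFA and BTC), against 22.5% of all genes. Both lay below for 2 of the 9 (ERBB2 and SHC1), against 23% of all genes. An exact permutation test of 2 arrays against 2 cannot give a two-sided p under 0.333. The median difference of the 9 genes was 0.081, beside 0.0082 over all genes, and the members ranged from -0.40 for SHC1 to 0.73 for EREG.

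**Figure D1:**
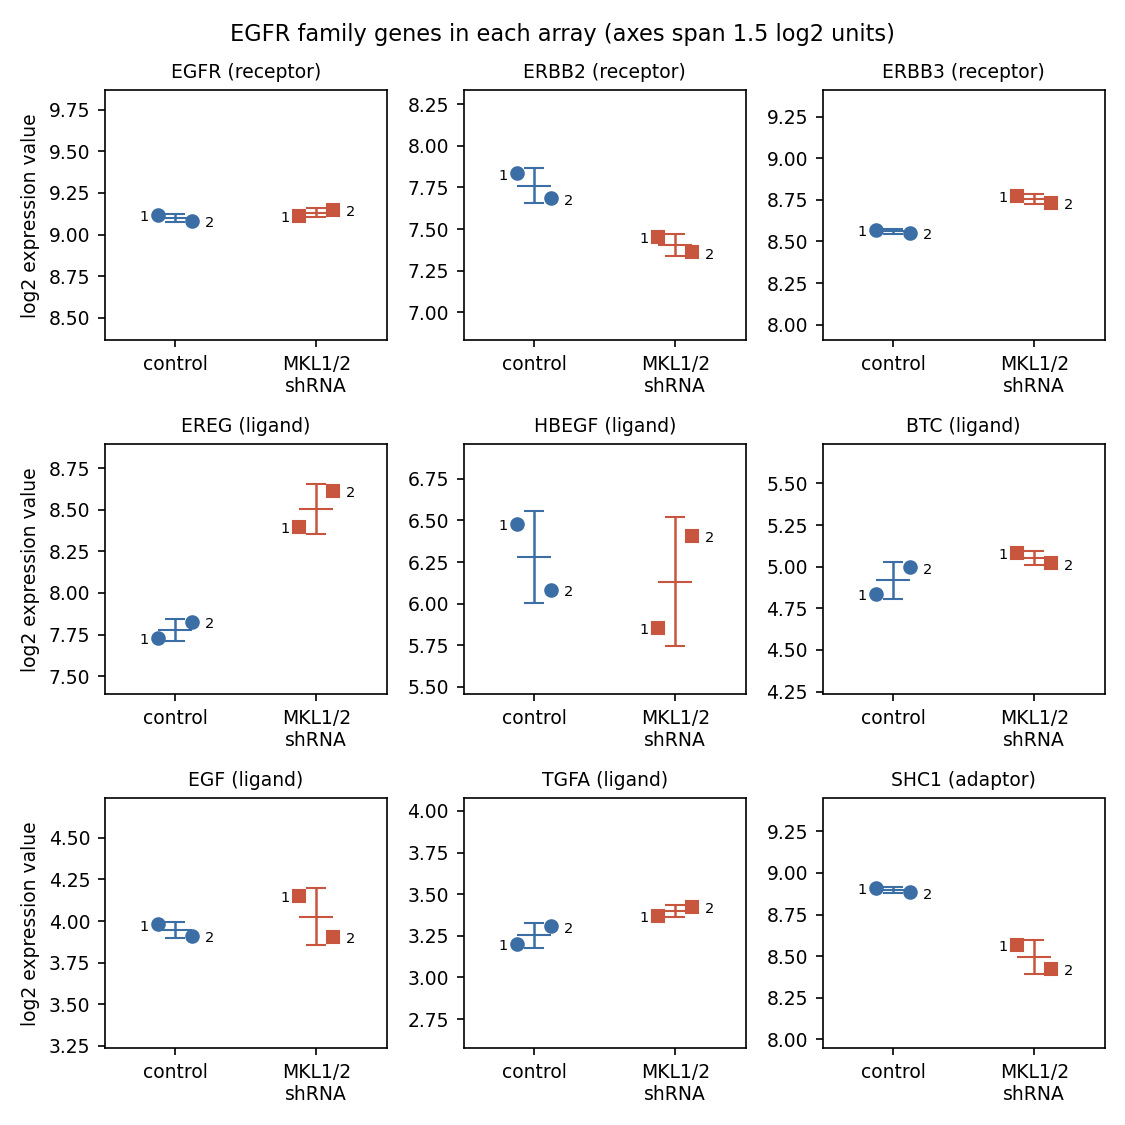
Log2 expression values of the 9 measured EGFR family genes in each of the 4 arrays (circles for control shRNA, squares for MKL1/2 shRNA, with the replicate number beside each), with the group mean and SD over 2 arrays. Each vertical axis spans the same range, so distances can be compared between panels: EREG is higher and ERBB2 and SHC1 are lower in both knockdown arrays, EGFR lies between 9.08 and 9.15 in all arrays, and HBEGF varies within each group.

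Among the receptors, EGFR lay in a narrow range across the arrays. It read 9.12 and 9.08 in control replicates 1 and 2 and 9.11 and 9.15 in knockdown replicates 1 and 2. The groups overlapped, and no array stood apart. The difference was 0.03 (SE 0.093, limma adjusted p = 0.924), with a 95% interval from -0.20 to 0.26. That interval holds modest changes of the array values either way and does not reach 1, a 2-fold change on this scale. It reflects only the spread between these samples.

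ERBB2, the partner receptor, was lower in both knockdown arrays. It read 7.84 and 7.69 in control and 7.45 and 7.36 in knockdown cells. The groups did not overlap, and the gap between them was wider than the spread within either. The difference was -0.35 (SE 0.104, 95% interval -0.61 to -0.10), or 0.782 of control. It passed at an unadjusted p of 0.0141 but not over all genes (limma adjusted p = 0.226). The unadjusted p was 0.0561 without limma's moderation and 0.123 without control replicate 1. In the same arrays the 7 hepatocyte markers ranged from -0.31 for AFP to 0.16 for ALB, with 5 below 0 and 2 above. The leukocyte marker PTPRC lay at 0.30, with values below the lower quartile in all arrays. The part of such markers in the result was not tested.

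ERBB3, which signals through its partner, lay the other way by a smaller amount. It read 8.57 and 8.55 in control and 8.77 and 8.73 in knockdown cells. The arrays of each group lay close together and the groups did not overlap. The difference was 0.19 (SE 0.093, limma adjusted p = 0.408), with a 95% interval from -0.03 to 0.42 that includes 0.

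Epiregulin, which binds EGFR and ERBB4, had the largest difference of the 9 genes. EREG read 7.73 and 7.83 in control and 8.40 and 8.61 in knockdown cells. Both knockdown arrays were high, replicate 2 more so, and the groups were well apart. The difference was 0.73 (SE 0.114, 95% interval 0.45 to 1.005), with an unadjusted p of 0.000627 and a limma adjusted p of 0.0944. By p-value it stood at place 121 of the 18417 genes, outside the 32 that passed. With knockdown replicate 1 left out the limma adjusted p was 0.0312, and with knockdown replicate 2 left out it was 0.041. It was 1.00 without control replicate 1 and 0.726 without control replicate 2. In each of these fits with 3 arrays the group left with a single array is assumed to vary like the other, and the difference ranged from 0.622 to 0.835.

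The stretch before the EREG start is shown because EREG had the largest difference. It lies at chr4:74364895-74365144 on the plus strand of GRCh38.p14, in the span of the long non-coding RNA gene LOC105377276, and the sequence comes from RefSeq. Capitals mark matches of 2 of the motifs searched on both strands: the TEAD motif CATTCC, 175 bases before the start, and the TATA motif TATAAA, 32 bases before it.

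EREG: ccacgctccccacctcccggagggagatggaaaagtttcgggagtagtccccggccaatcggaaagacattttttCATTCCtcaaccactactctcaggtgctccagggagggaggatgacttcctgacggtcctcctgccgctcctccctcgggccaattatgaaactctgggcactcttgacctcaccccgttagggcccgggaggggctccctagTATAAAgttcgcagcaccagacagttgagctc

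No CArG box, the sequence that SRF binds, was found in the 300-base window around the EREG start (250 bases before and 50 after, both strands), nor any match to the AP-1 motif TGANTCA or the CRE motif TGACGTCA. There were 12 such windows for 9 of the 10 genes, with AREG among them and no window for ERBB3. None of the 12 held a CArG box, against 1.29% of 35116 windows of the same length. The TEAD motif was in 3 of 12 (EREG, EGF and 1 of the EGFR windows), against 14% of all windows. The AP-1 motif was in 4 of 12 (EGF, ERBB2 and 1 window each of EGFR and SHC1), against 7.71% of all. The CRE motif was in 1 of 12 (AREG), against 1.85% of all. In EGF the AP-1 and TEAD matches overlap. These are matches of letters in a short window and say nothing about binding.

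EREG is 1 of 4 ligand genes that follow each other on chromosome 4, in the order EPGN, EREG, AREG and BTC, with no protein-coding gene between them in RefSeq. The 60 bases before each start are shown to compare these neighbours, with the TATAAA match in capitals. It lies 29 bases before the start in EPGN and AREG and 32 in EREG, and BTC has none in its window. TATAAA on either strand was in 11.5% of all windows.

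EPGN: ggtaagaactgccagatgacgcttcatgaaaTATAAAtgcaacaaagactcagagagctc
EREG: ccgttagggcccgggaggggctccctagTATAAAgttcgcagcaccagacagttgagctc
AREG: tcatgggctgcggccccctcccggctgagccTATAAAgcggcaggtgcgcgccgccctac
BTC: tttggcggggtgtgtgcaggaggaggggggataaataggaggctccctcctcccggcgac

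Of the neighbours, BTC and EPGN were measured. BTC, the gene of betacellulin, read 4.84 and 5.00 in control and 5.08 and 5.02 in knockdown cells. The groups did not overlap, but the gap was smaller than the spread of the controls. The difference was 0.13 (SE 0.104, limma adjusted p = 0.622), with a 95% interval from -0.12 to 0.39. EPGN, the gene of epigen, read 2.21 in each control array and 2.23 and 2.06 in knockdown arrays, far below the lower quartile of the array. Its groups overlapped (log2 difference -0.07, SE 0.103, limma adjusted p = 0.823). No test compared EREG with its neighbours directly.

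HBEGF, the heparin-binding ligand, differed more within the groups than between them. It read 6.48 and 6.08 in control and 5.86 and 6.41 in knockdown cells. The highest value was a control and the lowest a knockdown array, and the groups overlapped. The difference was -0.15 (SE 0.214, limma adjusted p = 0.813), and its 95% interval from -0.67 to 0.37 was the widest of the 9 genes.

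EGF and TGFA, the founding ligands of the family, read near or below the lower quartile. EGF lay at 3.98 and 3.91 in control and 4.15 and 3.90 in knockdown arrays. The groups overlapped, and the difference was 0.08 (SE 0.117, limma adjusted p = 0.815). TGFA lay at 3.20 and 3.31 against 3.37 and 3.42, with no overlap and a difference of 0.14 (SE 0.098, limma adjusted p = 0.566). With no background level known, it could not be said whether these probes measured transcript at all.

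SHC1, the adaptor that links the receptors to GRB2 and RAS, was lower in both knockdown arrays. It read 8.91 and 8.88 in control and 8.57 and 8.43 in knockdown cells. The controls lay close together and the groups did not overlap. The difference was -0.40 (SE 0.101, 95% interval -0.65 to -0.15), or 0.758 of control, at an unadjusted p of 0.00716 and a limma adjusted p of 0.187. The unadjusted p was 0.0585 without control replicate 1. Of the related adaptor genes, named after their values were seen, SHC2 lay at -0.07 (SE 0.113), SHC3 at 0.11 (SE 0.101) and SHC4 at 0.0027 (SE 0.102).

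**Figure D2:**
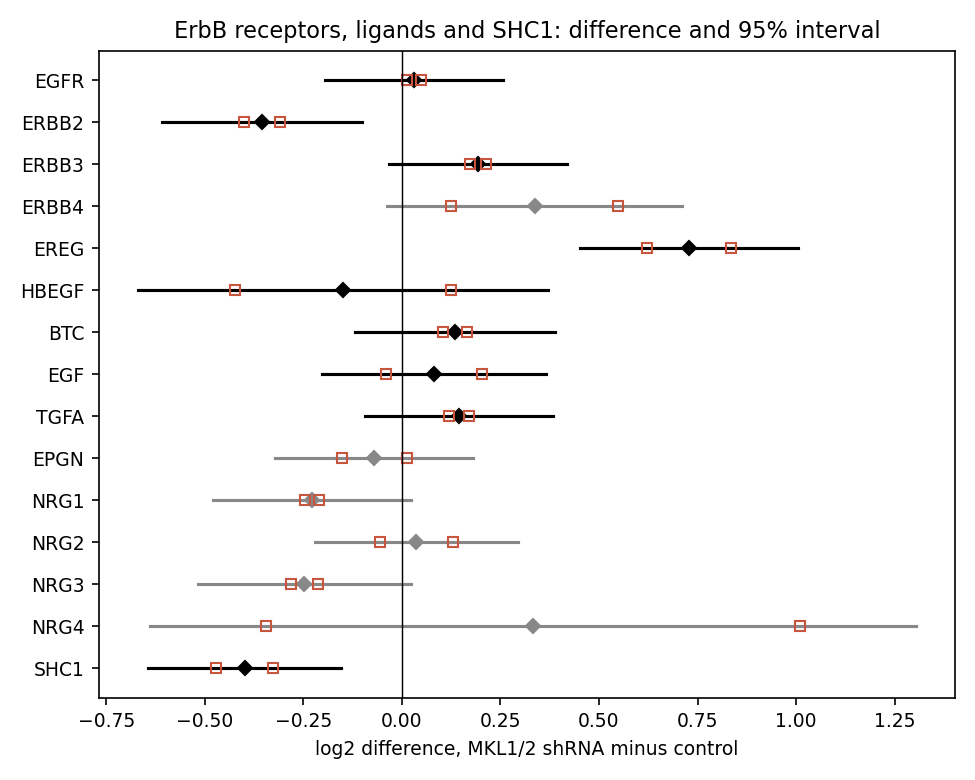
Log2 difference between MKL1/2 shRNA and control for each ErbB receptor and ligand and SHC1 (filled diamonds, black for the listed genes and grey for the other family genes), with limma's 95% interval as a line. Open squares give each knockdown array minus the control mean. The intervals of EREG, ERBB2 and SHC1 exclude 0, and that of NRG4 is the widest, with its arrays on either side of 0.

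The rest of the family comprises the receptor gene ERBB4, EPGN and the 4 neuregulin genes, whose products bind ERBB4 and only in part also ERBB3. All 6 were measured and none passed over all genes or at an unadjusted p under 0.05. ERBB4 read 4.28 and 4.36 in control and 4.45 and 4.87 in knockdown arrays, with no overlap (log2 difference 0.34, SE 0.154, limma adjusted p = 0.392). NRG1 read 6.05 and 6.21 against 5.89 and 5.92, a difference of -0.23 (SE 0.103). A second NRG1 probe, which was dimmer, went the other way, at 4.93 and 5.30 against 5.44 and 5.28, so the direction for NRG1 depends on the probe. NRG3 read 5.61 and 5.82 against 5.50 and 5.43, a difference of -0.25 (SE 0.111). NRG2 lay at 0.04 (SE 0.106). NRG4 lay at 3.79 and 3.66 in control and at 4.73 and 3.38 in knockdown arrays, so 1 array lay above and the other below both controls.

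By the distance between the 4 values after centring each gene on its mean, the genes whose pattern was most like that of EREG were RDH10, TMT1A and SLC22A9. RDH10, a retinol dehydrogenase gene, read 8.40 and 8.46 in control and 9.07 and 9.28 in knockdown cells (distance 0.035). TMT1A read 7.32 and 7.53 against 8.09 and 8.30 (distance 0.089), and SLC22A9, an organic anion transporter gene, 7.07 and 7.04 against 7.70 and 7.93 (distance 0.099). Their differences were 0.75, 0.77 and 0.76. This likeness rests on 4 arrays in 2 groups.

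Genes around the receptors were read from lists by role, and in none of them did a gene pass over all genes tested, by limma. Of 13 genes that release or restrain the ligands, 2 were lower and 2 higher at an unadjusted p under 0.05 (15.4% each way, beside 8.04% of all genes lower and 6.25% higher). The lower ones were TIMP3, an inhibitor of ADAM17 (-0.46, SE 0.133), and RHBDF2, an iRhom that brings ADAM17 to the cell surface (-0.31, SE 0.107). TIMP3 read 9.94 and 10.01 in control and 9.68 and 9.35 in knockdown cells. The higher ones were RHBDL2, a rhomboid protease gene (0.26, SE 0.098), which lay near 3 in all arrays, and ADAM10 (0.34, SE 0.129). ADAM10 and ADAM17 are named after their values were seen. ADAM17, which cuts most EGFR ligands, lay at 0.03 (SE 0.105).

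Among 24 measured genes that relay the signal from adaptors to ERK, PI3 kinase and STAT3, 1 had an unadjusted p under 0.05, beside 14.3% of all genes. It was the RAF kinase gene ARAF, at 8.32 and 8.43 in control and 8.61 and 8.75 in knockdown cells (0.30, SE 0.105, limma adjusted p = 0.28). The kinase gene AKT2 lay at -0.22 (SE 0.092) and STAT3 at 0.25 (SE 0.104). The median of this list was -0.019.

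Of 19 measured negative regulators of the receptors and of RAS, 4 were lower (21.1%) and 0 higher at an unadjusted p under 0.05, beside 8.04% of all genes lower and 6.25% higher. The 4 were the ubiquitin ligases CBL and CBLB, which mark active EGFR for degradation, the receptor-binding LRIG3, and SOCS4, a suppressor of cytokine signalling named after its value was seen. CBLB read 9.48 and 9.58 in control and 9.01 and 9.28 in knockdown cells (-0.38, SE 0.122, limma adjusted p = 0.253). CBL read 8.16 and 8.09 against 7.52 and 7.94 (-0.39, SE 0.152, limma adjusted p = 0.324), with the larger gap in replicate 1. LRIG3 lay at -0.31 (SE 0.103) and SOCS4 at -0.27 (SE 0.106). ERRFI1, an inhibitor that binds the EGFR kinase directly and was likewise named afterwards, lay at -0.20 (SE 0.138). The median of the list was -0.093, at -0.18 in knockdown replicate 1 and -0.063 in replicate 2.

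Of 22 genes of receptor uptake and sorting, 5 were lower (22.7%) and 1 higher (4.55%) at an unadjusted p under 0.05, beside 8.04% and 6.25% of all genes. CAV1, the caveolin gene, read 7.97 and 7.98 in control and 7.53 and 7.10 in knockdown cells (-0.66, SE 0.153, limma adjusted p = 0.162). EPS15L1, a relative of the EGFR substrate EPS15, read 8.51 and 8.64 against 8.12 and 8.22 (-0.41, SE 0.103, limma adjusted p = 0.187). The other lower genes were the sorting factors STAM and HGS and the clathrin heavy chain gene CLTC, at -0.31, -0.27 and -0.28, also named after their values were seen. The higher one was EPN2, an epsin gene, at 0.30 (SE 0.094). The middle difference of these 22 genes was -0.11, with a median of -0.18 in knockdown replicate 1 and -0.0037 in replicate 2.

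**Figure D3:**
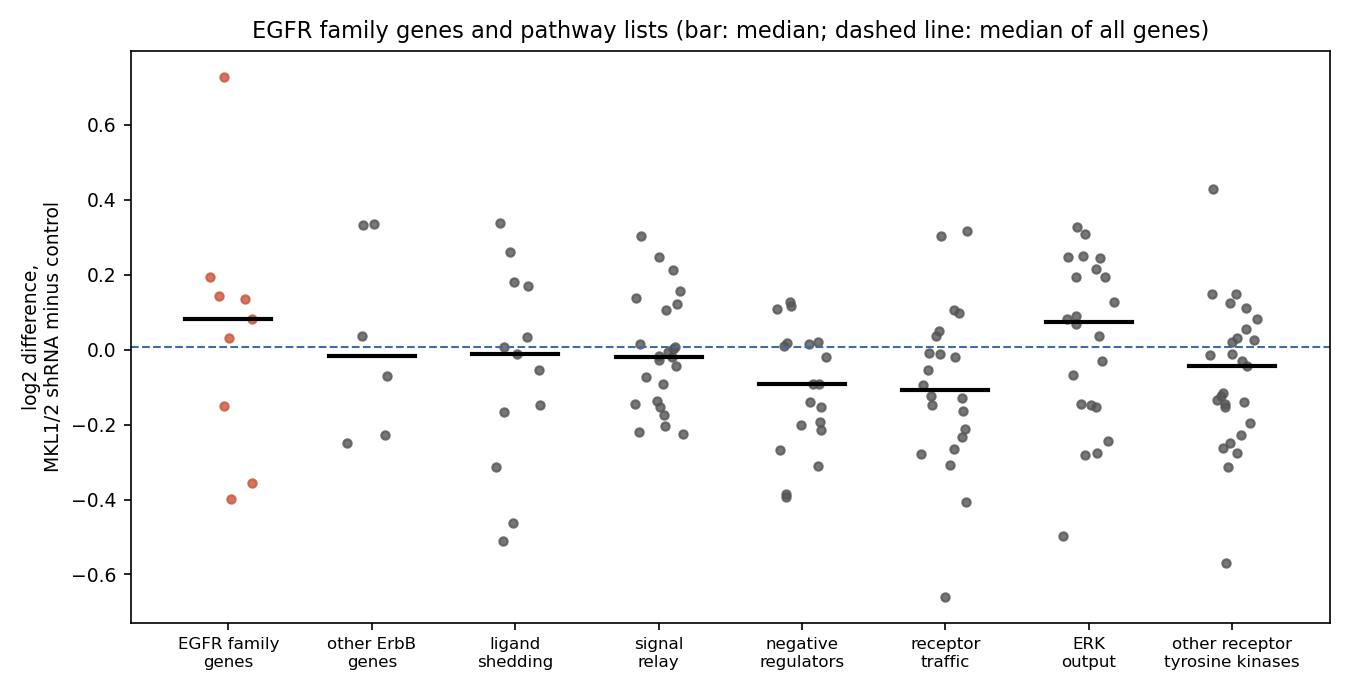
Log2 difference between MKL1/2 shRNA and control for every measured gene of the EGFR family and of 7 lists of related genes, 1 point a gene, with the median of each list as a bar and the median of all genes as a dashed line. Medians lie between -0.11 for receptor traffic and 0.081 for the EGFR family genes, and no point passed over all genes tested.

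Of 22 measured genes that ERK signalling is known to induce, FOSL1 and ETV4 were lower and S100A6 higher at an unadjusted p under 0.05. These 3 of 22 are a share close to the 14.3% of all genes. FOSL1, a Fos-family transcription factor gene, read 7.67 and 7.65 in control and 7.16 in each knockdown array (-0.50, SE 0.092, limma adjusted p = 0.123). ETV4, of the ETS family, lay at -0.28 (SE 0.115) and S100A6 at 0.33 (SE 0.1). The median of the list was 0.074, but it was -0.12 in knockdown replicate 1 and 0.26 in knockdown replicate 2.

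The ERK output genes differed between the knockdown arrays. In 19 of the 22 (86.4%) knockdown replicate 2 read above knockdown replicate 1, which held for 47.6% of all genes and 4 of the 9 EGFR family genes. It also held for 17 of the 22 receptor traffic genes (77.3%) and 12 of the 19 negative regulators (63.2%), and no test compared the lists. Knockdown replicate 1 had a lower upper quartile than replicate 2 (7.439 against 7.477) and a higher lower quartile (4.021 against 3.986). The part of this narrower range in the counts was not tested. ETV1, an ETS factor gene, read 6.64 and 6.76 in control arrays, 6.42 in knockdown replicate 1 and 7.37 in replicate 2. DUSP6, the phosphatase that shuts off ERK, read 7.34 and 7.32 in control, then 7.05 and 7.79. DUSP4 read 6.74 and 6.70, then 6.56 and 7.14. For these genes, named after their values were seen, the knockdown arrays lay on opposite sides of the controls, so the mean difference does not describe either array. EREG, ERBB2 and SHC1 lay on the same side in both arrays, whereas HBEGF was low in replicate 1 and within the control range in replicate 2. What differed between the 2 knockdown cultures was not tested.

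**Figure D4:**
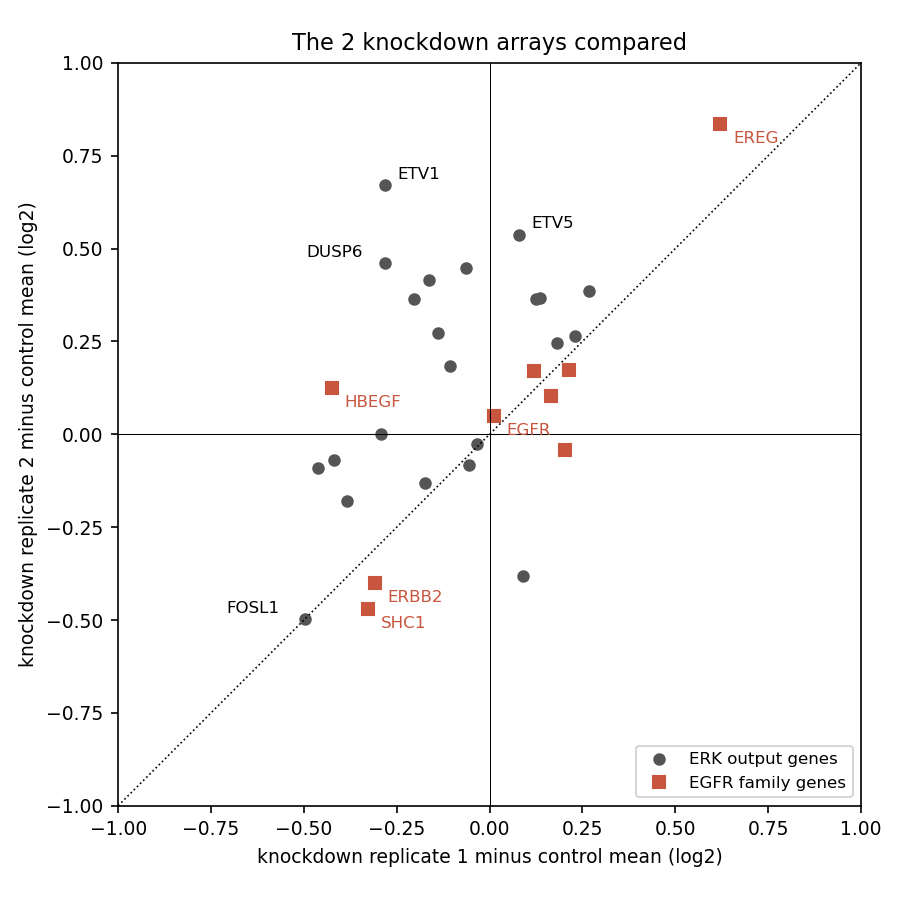
Knockdown replicate 1 minus the control mean (horizontal) against knockdown replicate 2 minus the control mean (vertical), in log2 units, for the 9 EGFR family genes (squares) and 22 ERK output genes (circles), with a dotted line where both arrays are equal. EREG lies above 0 and ERBB2 and SHC1 below 0 in both arrays, and 19 of the 22 circles lie above it, ETV1 and DUSP6 farthest from it.

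Among 27 measured genes of other receptor tyrosine kinases, EPHA1 was higher and MERTK and FGFR2 were lower at an unadjusted p under 0.05, which is 11.1% of the list beside 14.3% of all genes. EPHA1, an ephrin receptor, read 5.49 and 5.64 in control and 6.09 and 5.90 in knockdown cells (0.43, SE 0.116, limma adjusted p = 0.207). MERTK, a TAM-family receptor, read 8.03 and 7.89 against 7.17 and 7.61 (-0.57, SE 0.16, limma adjusted p = 0.216). FGFR2 lay at -0.31 (SE 0.103). The hepatocyte growth factor receptor MET, named after its value was seen, lay at 0.12 (SE 0.098). The median of this list was -0.044.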

How the data were processed

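Total RNA of 4 HuH7 samples was labelled with biotin for whole-transcript arrays, per the labels' protocols. The values deposited by the authors cover 33297 probes and were read as log2, a scale inferred from their range; the submitters' processing notes name Partek. How background was corrected and arrays were normalized was not stated there. Of the probes, 19460 list 1 gene symbol and 1754 several in the platform annotation. The brightest single-gene probe over 4 arrays stood for each gene (18417 genes), and symbols were updated through Entrez identifiers (19429 found in RefSeq, GRCh38.p14). Groups and replicate numbers came from the sample titles. The test was limma's two-sided moderated test (limma 3.58.1, R 4.3.3), with a single term for the group and 2 residual and 4.12 prior degrees of freedom. Its p-values were Benjamini-Hochberg adjusted over all genes, and the procedure was tested on simulated data. The MRTFA probe lists several genes and was added to that fit as 1 more feature. SDs describe levels, and the SE of a difference is the moderated one.

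The EGFR family genes and the lists were chosen with earlier results of these data known. Named genes are the listed genes, the other ErbB genes, the shRNA targets, the 3 genes of smallest p in each list and the 3 nearest to EREG, and others are marked as named after their values were seen. Alternatives used quantile or median renormalization, left out the dimmest 40% of genes, averaged probes, tested all probes, changed the moderation or the threshold, blocked on the replicate number and left out each array. At most 174 probes had identical values in any 2 arrays. Replicate numbers were not taken to pair samples, since the labels name no shared day.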

Additional observations from a re-analysis of the deposited data

How the results depend on the processing

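With all 4 arrays, 0 EGFR family genes were called at 0.05 after adjustment under any alternative run (3 at an unadjusted p under 0.05, or 4 after quantile renormalization, where ERBB3 joined at 0.0467; with no moderation the 3 were EREG, SHC1 and ERBB3, at 0.014, and not ERBB2, at 0.0561), and 1, EREG, passed a threshold of 0.1. With 1 array left out the count ranged from 0 to 1. With the replicate block it was 0, with an EREG adjusted p of 0.0638, and the block raised the count over all genes from 32 to 93; the deviations of same-numbered arrays had a correlation of -0.067 over genes. Over all alternatives the EREG adjusted p ranged from 0.0312 to 1.00. The genes called over all genes numbered 0 without either control array, 299 without knockdown replicate 1 and 781 without knockdown replicate 2, 68 with trend and robust moderation, and 0 when all probes were tested or with no moderation (limma; 2632 genes had an unadjusted p under 0.05 in the reported fit). With 1 array left out, the genes higher with no overlap ranged from 4 to 5 and those lower from 2 to 3. Groups separate more easily when 1 of them holds a single array, and the share of all genes was not counted for these settings. The median difference of the family was 0.07 after quantile renormalization, 0.0492 after median scaling and 0.047 to 0.119 with 1 array left out. Without the dimmest 40% of genes, which leaves 6 of the 9 and no value for EGF, TGFA or BTC, it was -0.0596. In that setting 2 genes were higher with no overlap, and the share of all genes was not counted. EGFR had the opposite sign after median scaling (-0.00149). With 1 array left out, EGF (opposite sign without knockdown replicate 1) ranged from -0.0412 to 0.204 and HBEGF from -0.425 to 0.125, at 0.0462 without control replicate 1 and 0.125 without knockdown replicate 1. The cause was not tested. The other 6 genes kept their direction under every alternative that gave a value. At an unadjusted p under 0.05 there was 1 family gene, EREG, without control replicate 1, in place of 3. Only 4 arrays and no detection calls limit what can be said of the dim ligands.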
